A study of Homo sapiens with 8 samples.

Results

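The 77 genes described here encode proteins of the mitochondrial ribosome. They were chosen by name alone: every gene in the deposited table whose symbol is MRPL or MRPS followed by a number, without pseudogenes. They make up 77 of the 25695 genes with a symbol, and 144 of the 53216 transcript rows. Of the 77, 51 belong to the large subunit of the ribosome and 26 to the small subunit. MRPS30 and MRPS18A were counted with the large subunit, where their proteins sit. By the list used, 46 of the proteins have homologues in bacterial ribosomes, and the other 31 are specific to mitochondria or were not assigned. MRPS18A and MRPS18B, paralogues of the bacterial S18 protein, were counted among the 31. MRPS36 carries the symbol KGD4 in the gene table used, so it was not a member.

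Mitochondria make their few mitochondrially encoded proteins, all of them parts of the respiratory chain and ATP synthase, on a ribosome of their own. Its rRNAs are transcribed inside the organelle, but all of its proteins are encoded in the nucleus, translated in the cytosol and imported. NAD can stand at the 5′ end of an RNA in place of the usual cap when transcription begins with NAD where it would otherwise begin with ATP, so an NAD-capped RNA begins with A.

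RNA was sequenced from HEK293T, a human embryonic kidney cell line, grown under standard conditions without treatment, in 8 libraries. Wild-type (WT) total RNA depleted of rRNA with RiboMinus gave 2 libraries and WT RNA enriched by NAD-Capture gave 3; another 3 NAD-Capture libraries came from HEK293T cells labelled DXO-KO. DXO is an enzyme that removes NAD caps from RNA, and the series title names this removal as its question. In NAD-Capture an ADP-ribosyl cyclase exchanges part of the NAD for 4-pentyn-1-ol, a copper-catalysed click reaction adds biotin, and streptavidin beads bind the RNA. The cyclase-free background reaction that the labels mention was not analysed here. A TruSeq kit was used for the RiboMinus RNA and a SMARTer kit for low input for the captured RNA, so capture and kit cannot be told apart. The labels do not say whether replicates were separate cultures, or whether the cells labelled DXO-KO were 1 clone, so p-values measure only the spread between these libraries, which may be technical.

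Values are FPKM, by definition fragments divided by transcript length in kilobases and by the library's mapped fragments, summed per gene. How Cuffdiff scaled the libraries is not given, so scaling within each library is an assumption here. Under it, a lower value is a smaller share of that library's mapped fragments for the length of the transcript. No amount of NAD-capped RNA can be read from it. In RNA pooled from many cells, fewer expressing cells and less RNA per cell cannot be told apart. The estimated depth was 8767590 to 10712420 fragments in the RiboMinus libraries, but 165280 to 249326 in the WT NAD-Capture libraries and 80731 to 808205 in those labelled DXO-KO. DXO itself was listed at 33.2, 17.2 and 27.1 FPKM in WT NAD-Capture and at 127.6, 61.6 and 71.7 FPKM in the DXO-KO-labelled libraries. Its RNA was thus higher, not lower, in every library labelled as knockout, by 1.69 on the log2 scale, with a two-sided exact permutation p of 0.1, the smallest that 3 against 3 libraries allow. No result here rests on the knockout being complete. All 8 markers chosen for HEK293T cells were detected in each group, and their summed FPKM ran from 345.9 to 364.6 in RiboMinus, from 156.9 to 228.8 in WT NAD-Capture and from 338.7 to 430.5 in the DXO-KO-labelled libraries. Over 16 markers of blood, liver, connective tissue and other cell types, the summed FPKM was 4.08 to 5.12, 70.5 to 90.2 and 36.5 to 48.0 in the same order, with 8, 7 and 5 of them at 0 in all libraries of the group and PTPRC and HBB at 0 in every library. Their part in the results was not tested.

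In RiboMinus RNA all 77 members were detected, at group means from 10.1 to 213.9 FPKM with a median of 51.7. MRPL51, a large-subunit protein specific to mitochondria, was the highest at 217.7 and 210.2 FPKM. MRPL37, another mitochondria-specific protein, stood at 173.4 ± 2.94 FPKM (SD, n = 2), and MRPL20, whose bacterial homologue helps the large subunit assemble, at 153.2 ± 6.60 FPKM. These 3 did not overlap each other. MRPL27, a protein near the peptidyl transferase centre, followed at 124.1 ± 5.51 FPKM, and MRPS24, at the mRNA entry of the small subunit, at 119.7 ± 4.38 FPKM, a difference within their spread. MRPL21, MRPL24, MRPL14, MRPL40 and MRPL18 completed the highest 10, with means between 88.0 and 97.8 FPKM that were not separated beyond the spread of MRPL14 (98.5 and 84.4 FPKM). At the other end were MRPS10, MRPL45, which tethers the ribosome to the inner membrane, MRPS18C, MRPL57 and MRPL22, a protein of the exit tunnel. Their means were 20.0, 17.2, 15.3, 11.4 and 10.1 FPKM. The replicates were close, with a median coefficient of variation of 3.47% over the members and a Spearman rho of 0.985 between both libraries across the 77 genes, which are not independent replicates.

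**Figure D1:**
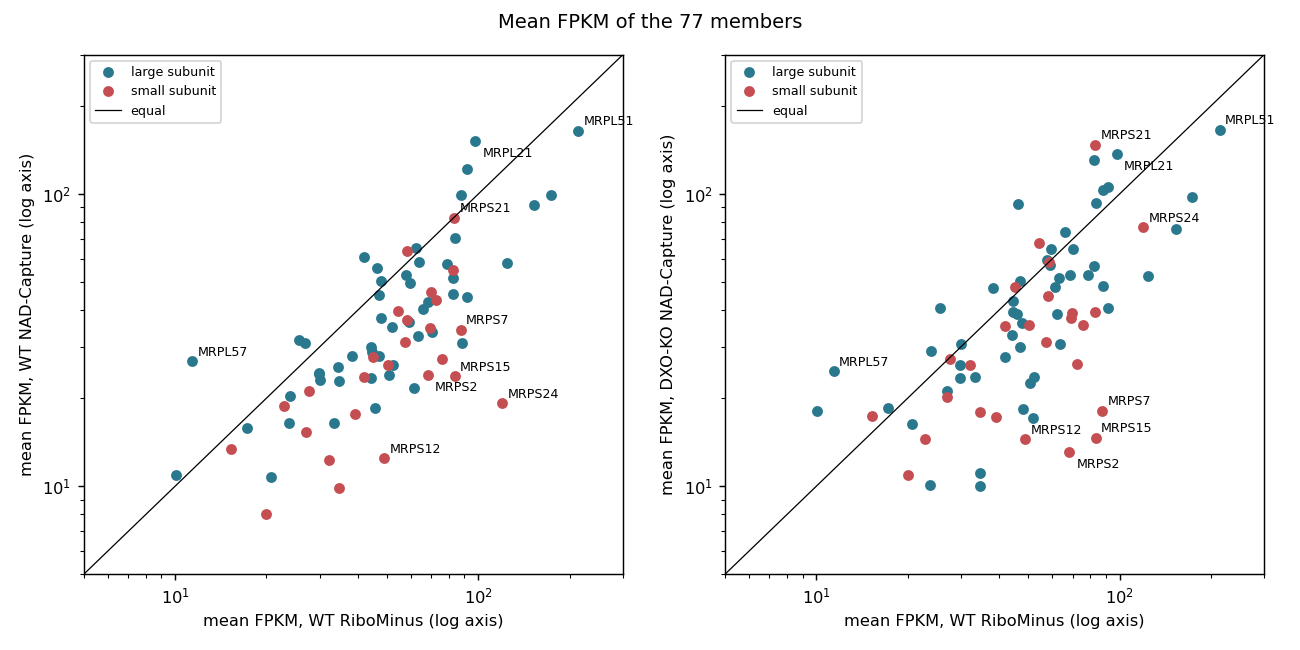
Mean FPKM of each of the 77 members in WT RiboMinus (horizontal, log axis) against WT NAD-Capture (left) and against the DXO-KO-labelled libraries (right, both vertical log axes), coloured by ribosomal subunit, with the line of equal values. Most points lie below the line, MRPL57 above it in both panels, and MRPS15 and MRPS7 well below it in both.

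The same genes rested on far fewer fragments after NAD-Capture and varied more between replicates in relative terms. The median member had 632 and 517 fragments in the RiboMinus libraries, but 7.70, 6.53 and 9.65 after NAD-Capture of WT RNA, and 26.5, 5.79 and 4.80 in replicates 1 to 3 with the DXO-KO label. The median coefficient of variation was 32.5% in WT NAD-Capture and 35.8% in the DXO-KO-labelled libraries. The spread between replicates was also set against what counting alone would give (chi-square per degree of freedom). It was 1.38 times in WT NAD-Capture, 1.89 times in RiboMinus and 2.59 times in the DXO-KO-labelled libraries. MRPL42 alone held a large part of the estimated member fragments in every group. In the DXO-KO-labelled libraries it held 503.6, 254 and 147 of 3256, 759 and 511. Its part was 188.2, 115 and 185 of 896, 740 and 1068 in WT NAD-Capture, and 8005.4 and 5927.7 of 66790 and 53297 in RiboMinus. MRPL49 was estimated at 0 fragments in WT NAD-Capture replicate 2 and DXO-KO-labelled replicate 3, though listed at 27.5 and 64.0 FPKM. The groups are therefore not ranked by this measure. Spearman's rho across the 77 members lay between 0.536 and 0.692 for pairs of WT NAD-Capture libraries and between 0.566 and 0.674 for pairs labelled DXO-KO. MRPL51 remained the member with the highest mean in both NAD-Capture groups, though not the highest in every library. It was listed at 242.0, 128.2 and 123.5 FPKM in WT and 106.4, 180.3 and 211.5 FPKM in the DXO-KO-labelled libraries, ranges that overlapped. In WT NAD-Capture replicates 2 and 3, MRPL21 (225.05 and 134.2 FPKM) and MRPL14 (157.7 and 130.7 FPKM) stood above it. In replicate 1 labelled DXO-KO, MRPL14 (110.3 FPKM) and MRPL36 (109.6 FPKM) did.

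**Figure D2:**
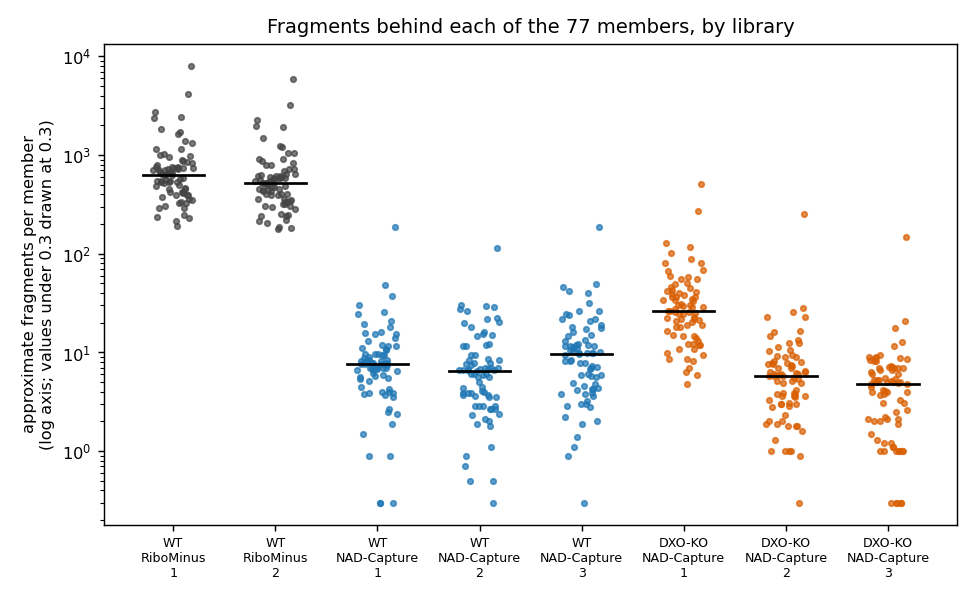
Estimated fragments behind each of the 77 members (points, log axis) in each of the 8 libraries, with the median as a bar. Medians were 517 to 632 fragments in RiboMinus and 4.80 to 26.5 in the NAD-Capture libraries.

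Since an NAD cap stands on an A, the promoters were read for the base at the annotated start. RefSeq promoter windows of assembly GRCh38.p14, 250 bases before to 50 bases after the start, were matched by symbol for 69 of the 77 members and held 85 starts. The start base was A in 37 of them (43.5%) and G in 38 (44.7%), against 50.14% and 36.2% of the 22199 windows of protein-coding genes and 44.4% and 33.6% of all 35116 windows. The share of A was thus below that of protein-coding genes and the share of G above it, a description with no test. The sequence CCGGAAG, searched on both strands and known as a site for ETS-family transcription factors, was in 33 of the 85 windows (38.8%), against 10.3% of all windows and 12.8% of those of protein-coding genes. In the 70 bases around the start, 60 before and 10 from it, 25 of 85 held it (29.4%), against 6.17% for protein-coding genes. TATAAA, the core of the TATA box, was in 3 windows on either strand (3.53%, against 11.5% of all). These matches are a description and show no binding. The windows of 6 members are shown, MRPL20 for its high level in RiboMinus and the other 5 because they were called in a comparison below. They are written 5′ to 3′ on the strand of the gene, 60 bases before the start and 10 from it, with CCGGAAG or its reverse complement and the start base in capitals. The windows are MRPL20 at chr1:1407284-1407353 on the minus strand, MRPL40 at chr22:19432485-19432554 on the plus strand, MRPS23 at chr17:57850035-57850104 on the minus strand, MRPS15 at chr1:36464375-36464444 on the minus strand, MRPS7 at chr17:75261819-75261888 on the plus strand and MRPL57 at chr13:21176598-21176667 on the plus strand.
MRPL20: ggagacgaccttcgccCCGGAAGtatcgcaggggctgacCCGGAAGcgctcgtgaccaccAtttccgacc
MRPL40: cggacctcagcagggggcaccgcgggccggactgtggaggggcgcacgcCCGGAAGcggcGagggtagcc
MRPS23: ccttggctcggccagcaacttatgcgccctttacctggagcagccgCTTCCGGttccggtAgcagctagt
MRPS15: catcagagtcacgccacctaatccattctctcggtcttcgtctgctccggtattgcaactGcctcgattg
MRPS7: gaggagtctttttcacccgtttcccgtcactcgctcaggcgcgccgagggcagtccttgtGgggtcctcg
MRPL57: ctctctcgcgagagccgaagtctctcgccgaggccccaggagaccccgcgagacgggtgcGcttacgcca
MRPL20 holds the 7-base sequence at 2 places and begins with A, and MRPS23 holds it once on the other strand and also begins with A. MRPL40 holds it once and begins with G. MRPS15, MRPS7 and MRPL57 begin with G and do not hold it in these 70 bases. All of these are annotated starts, and where transcription began in these cells was not measured.

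The first comparison asks which of these mRNAs took a larger or smaller share of WT NAD-Capture RNA than of WT RiboMinus RNA. Most took a smaller one. The log2 difference, on the log2(FPKM + 1) scale that understates changes of low genes, was below 0 for 66 of the 77 members, with a median of -0.68, while it was below 0 for 45% of the 16859 genes tested, with a median of 0.20. limma with Benjamini-Hochberg adjustment over all genes called 10 members lower (12.99%) and 1 higher at an adjusted p under 0.05, against 7.94% of all genes called lower and 16.5% called higher. The groups did not overlap, with every NAD-Capture library below both RiboMinus libraries, for 47 members (61.0%), against 27% of all genes, and the reverse held for 2 members (2.60%), against 28.6%. Part of this gap went with the level of the genes. Of the 6858 genes with a mean FPKM of at least 10, which include all 77 members, 61.5% were below 0, 42.8% did not overlap on the lower side and the median was -0.34. Fitted on those genes, 15 members (19.5%) were called lower against 18% of the genes, a share near the background, and 1 (1.30%) was called higher against 16.1%. The summed FPKM of the members made up 1.31% and 1.32% of the FPKM of all protein-coding (NM) rows in RiboMinus, but 0.621%, 0.649% and 0.712% in WT NAD-Capture.

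**Figure D3:**
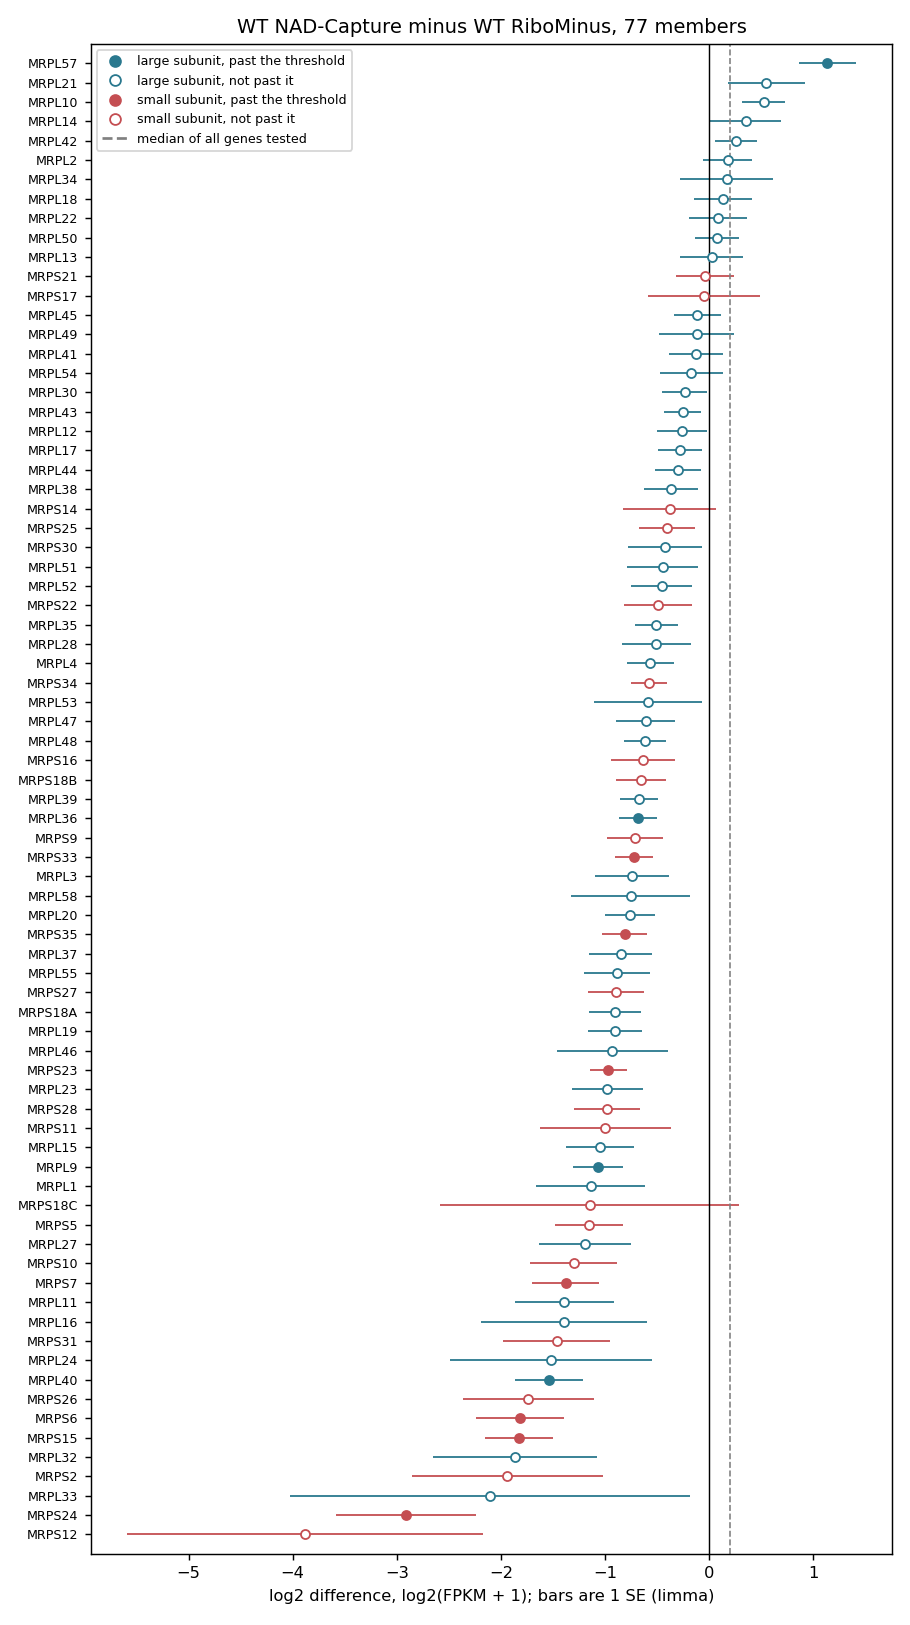
Log2 difference of each of the 77 members, WT NAD-Capture minus WT RiboMinus, on the log2(FPKM + 1) scale with its standard error from limma. Filled points passed an adjusted p of 0.05 over all genes, colours give the subunit, and the dashed line is the median of all genes tested (0.20). All 26 small-subunit members lie below 0 (24 of 26 under quantile normalization).

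The small subunit held 7 of the 10 members called lower, but 6 of 10 with no filter on low values. Without WT NAD-Capture replicate 1 it held 9 of 19. All 26 of its members were below 0, with a median of -0.98. Called lower were 26.92% of them, and 21 (80.77%) did not overlap on the lower side, against 7.94% and 27% of all genes. Of the genes with a mean FPKM of at least 10, 18% were called lower and 42.8% did not overlap on that side. Fitted on those genes, 9 of the 26 were called lower. Under quantile normalization, or without WT NAD-Capture replicate 1 or 2, 24 of the 26 were below 0. Of the 51 large-subunit members 40 were below 0, with a median of -0.51. Of these 51, 3 (5.88%) were called lower and 1 (1.96%) higher, against 7.94% and 16.5% of all genes. Of the members' summed FPKM, the small subunit took 32.1% and 31.7% in the RiboMinus libraries. After NAD-Capture it took 24.76%, 23.97% and 26.31% in WT and 26.7%, 25.6% and 28.5% in the DXO-KO-labelled libraries. Both RiboMinus libraries thus stood above all 6 NAD-Capture libraries, a description for which no test was made. Of the 46 members with bacterial homologues 6 were called lower, with a median of -0.82, and of the 31 others 4 were called lower and 1 higher, with a median of -0.58. In either direction 13.04% of the former and 16.13% of the latter were called, against 24.5% of all genes. By annotated start base, the median was -0.72 over the 24 members with only A starts, of which 3 were called, all lower, and -0.73 over the 38 with no A start, of which 8 were called, 7 of them lower. It was -0.49 over the 7 with starts of both kinds and -0.24 over the 8 with no promoter entry, and none of these 15 was called. The difference between these groups was not tested.

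Among the small-subunit members called, MRPS24 moved furthest. It was listed at 122.8 and 116.6 FPKM in RiboMinus and at 38.9, 11.3 and 7.45 FPKM in WT NAD-Capture, values that rest on 3.8, 0.9 and 0.9 estimated fragments. It fell by 2.91 on the log2 scale (SE 0.67, limma adjusted p = 0.0329), with no overlap between the groups. A readthrough gene, URGCP-MRPS24, overlaps it but was at or under 0.801 FPKM in every library. MRPS15, a homologue of a bacterial protein that binds the small-subunit rRNA, was listed at 83.8 and 83.3 FPKM in RiboMinus and at 26.1, 30.2 and 15.1 FPKM in WT NAD-Capture, on 4.0, 4.0 and 3.0 fragments. Its fall of 1.82 (SE 0.33, limma adjusted p = 0.0166) was the only call of a member that held under quantile normalization. MRPS6 was listed at 34.7 FPKM in both RiboMinus libraries and at 9.67, 5.22 and 14.6 FPKM in WT NAD-Capture. The latter values rest on 1.5, 0.7 and 2.9 fragments. MRPS6 fell by 1.82 as well, and shares its locus with the transporter gene SLC5A3, whose reads may be split between both. MRPS7, part of the head of the small subunit, went from 89.5 and 85.5 FPKM to 46.2, 34.2 and 22.7 FPKM, a fall of 1.38 (SE 0.32, limma adjusted p = 0.0339). Its WT NAD-Capture values rest on 10.7, 6.8 and 6.8 fragments.

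The 3 other small-subunit members called lower are specific to mitochondria. MRPS23 was listed at 70.9 and 67.3 FPKM in RiboMinus and at 35.6, 32.2 and 36.7 FPKM in WT NAD-Capture, on 37.0, 28.9 and 49.6 fragments. The NAD-Capture libraries lay close together, and the fall of 0.97 had a standard error of 0.17 (limma adjusted p = 0.0167). MRPS33 went from 75.9 and 68.8 FPKM to 39.5, 45.7 and 45.4 FPKM, on 30.6, 30.5 and 45.7 fragments, a fall of 0.72. MRPS35 went from 42.2 and 41.8 FPKM to 19.5, 26.4 and 25.1 FPKM, on only 5.6, 6.6 and 9.5 fragments, a fall of 0.81. Their limma adjusted p-values were 0.0395 and 0.0477, close to the threshold.

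Of the large subunit, MRPL40 fell furthest among the members called, from 89.8 and 86.9 FPKM to 34.1, 19.7 and 39.2 FPKM, by 1.54 (SE 0.33, limma adjusted p = 0.0260). MRPL9, whose bacterial homologue reaches out from the base of a stalk, was listed at 49.5 and 52.0 FPKM in RiboMinus and at 21.3, 20.6 and 30.2 FPKM in WT NAD-Capture, a fall of 1.07. MRPL36, which overlaps the respiratory chain gene NDUFS6, fell by 0.68, from 56.7 and 61.1 FPKM to 34.4, 39.7 and 35 FPKM. Its limma adjusted p of 0.0463 was close to the threshold, and its WT NAD-Capture values rest on 2.7, 2.7 and 3.6 fragments. Those of MRPL40 rest on 7.7, 3.9 and 11.6 fragments, and those of MRPL9 on 4.5, 3.7 and 8.2. MRPL57 was the only member called higher. It was listed at 10.82 and 11.98 FPKM in RiboMinus, among the lowest members there, and at 20.6, 33.9 and 25.7 FPKM in WT NAD-Capture, on 8.1, 11.5 and 13.1 fragments. It rose by 1.13 (SE 0.27, limma adjusted p = 0.0371), with no overlap, but lost its call in 9 of 15 alternative runs. Its limma adjusted p was 0.12 after centring each library on its median gene and 0.06 under quantile normalization. No member was called higher after rescaling to the protein-coding rows, with all 8 libraries in the fit or without WT NAD-Capture replicate 3. The log2 difference of MRPL57 stayed between 0.68 and 1.30 over the alternatives. The calls rest on having both RiboMinus libraries: without RiboMinus replicate 1 or without replicate 2, which leaves 1 library assumed to vary like the others, no member was called, 7 members had an unadjusted p under 0.05 in either case, and the members' median stayed at -0.65 and -0.69. Without WT NAD-Capture replicate 1, 20 members were called, and 5262 of 16462 genes.

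**Figure D4:**
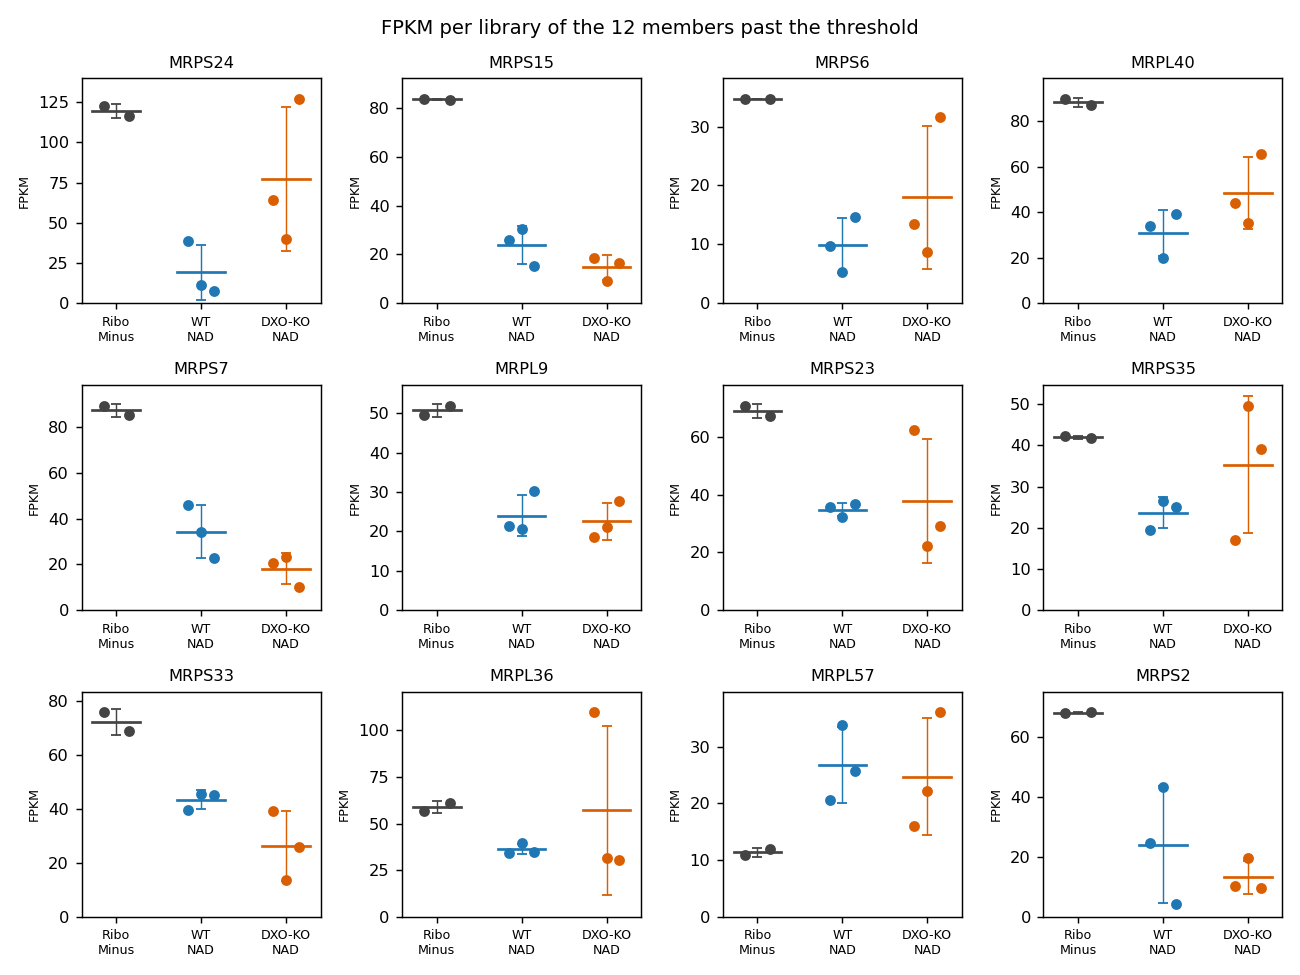
FPKM in each library (points), with the group mean (line) and 1 SD (bar), for the 12 members that passed an adjusted p of 0.05 in a comparison with RiboMinus. The RiboMinus libraries lie close together. By SD, the DXO-KO-labelled libraries scatter more than WT NAD-Capture except in MRPS2, MRPS7, MRPS15 and MRPL9, where they scatter less. MRPL57 is the only one of the 12 with RiboMinus below all 3 WT NAD-Capture libraries.

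The paralogues of the bacterial S18 protein differ in where they sit, MRPS18C at the bacterial site, MRPS18B elsewhere in the small subunit and MRPS18A in the large subunit. None of the 3 was called. MRPS18A was listed at 46.2 and 42.2 FPKM in RiboMinus and at 21.9, 19.1 and 29.6 FPKM in WT NAD-Capture, without overlap. MRPS18B was listed at 61.2 and 55.3 FPKM and at 46.1, 35.7 and 29.7 FPKM, also without overlap; only 1 of its 7 rows held values above 0. MRPS18C, at 15.55 and 14.98 FPKM in RiboMinus, had 0, 27.2 and 12.9 FPKM in WT NAD-Capture, where 3 fragments in replicate 1 would have given 41.4 FPKM, so its absence there was within the depth. MRPL12, a protein of the stalk that binds translation factors and is also known to bind the mitochondrial RNA polymerase, was listed at 80.4 and 86.9 FPKM in RiboMinus and at 55.3, 85.5 and 71.0 FPKM in WT NAD-Capture, which overlapped. Its log2 difference was -0.26.

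The second comparison asks whether these mRNAs differed between the DXO-KO-labelled libraries and WT, both after NAD-Capture with the same kit. No member passed the threshold. limma called 6 of 17594 genes (0.0341%), 3 higher and 3 lower (0.0171% each), and at an unadjusted p under 0.05 it gave 7 of the 77 members (9.09%) against 16.6% of all genes. The members' median log2 difference, DXO-KO minus WT, was 0.13, with 45 above 0 and 32 (41.6%) below, against 50.4% of all genes below, and the median of all genes was -0.01; over genes with a mean FPKM of at least 10 it was 0.27, above the members' 0.13. Under quantile normalization the members' median turned to -0.14, and leaving out 1 library moved it between 0.01, without WT NAD-Capture replicate 3, and 0.28, without replicate 1 labelled DXO-KO. The groups did not overlap for 5 members on the higher side (6.49%), against 11.8% of all genes, and for 6 on the lower side (7.79%), against 11.5%.

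MRPS24 came nearest to a call. It was listed at 63.9, 40.2 and 127.0 FPKM in the DXO-KO-labelled libraries, above the 38.9, 11.3 and 7.45 FPKM of WT NAD-Capture, a log2 difference of 2.12 (SE 0.63, limma adjusted p = 0.179). Replicates 2 and 3 labelled DXO-KO held 2.8 and 5.2 estimated fragments of it. The other members named in this paragraph were picked after their values were seen. MRPL55 was listed at 57.7, 136.5 and 199.1 FPKM against 49.6, 30.4 and 56.4 FPKM, a log2 difference of 1.38. MRPL10, which anchors the stalk proteins, was listed at 17.99, 18.5 and 46.3 FPKM against 53.1, 57.9 and 72.0 FPKM, a log2 difference of -1.24. MRPL38 and MRPL52 had log2 differences of -0.98 and -1.13, with limma adjusted p-values of 0.214 and 0.225. In MRPL54 the DXO-KO-labelled libraries were listed at 31.5, 30.8 and 29.9 FPKM, under the 67.4, 38.9 and 68.7 FPKM of WT NAD-Capture. These values rest on 10.8, 1.8 and 1.0 estimated fragments, against 5.5, 2.7 and 7.3. The closeness of the former therefore says little about their spread. The log2 difference of MRPL54 was -0.86, with a limma adjusted p of 0.247. All of these groups were apart, and none of the differences passed the threshold over all genes. Missing the threshold does not show that the groups were alike, since the median member rests on 5.79 and 4.80 fragments in replicates 2 and 3 labelled DXO-KO.

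The third comparison sets the DXO-KO-labelled libraries against WT RiboMinus; it shares its RiboMinus libraries with the first, so both sets of values are given without reading their likeness as a result. It also joins cell label, capture and kit. Of 77 members 59 were below 0, with a median of -0.51, against 43.2% of 14946 genes and a median of 0.19. Without replicate 1 labelled DXO-KO 52 were below 0 and the median was -0.31. Over 6943 genes with a mean FPKM of at least 10, 52.5% were below 0 and the median was -0.07. limma called 3.12% of all genes in either direction. It called 3 members lower (3.90%), all of the small subunit, against 0.83% of all genes, and none higher, against 2.29%. Fitted on the genes with a mean FPKM of at least 10, it called 8 members lower (10.4%), against 3.18% of those genes, and none higher, against 5.2%. Of those 8, 4 were of the large subunit and 4 of the small. Among genes above 0 in every library 10 members were called lower, against 399 of 9906 genes. Of these 10, 6 were of the large subunit and 4 of the small. In the fit over all genes, 21 members (27.27%) had an unadjusted p under 0.05, against 21.1% of all genes. Non-overlap was on the lower side for 36 members (46.8%), against 20.4% of all genes and 29.5% of those with a mean FPKM of at least 10, and on the higher side for 2, against 24.1%.

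MRPS15 was listed at 18.5, 9.02 and 16.4 FPKM in the DXO-KO-labelled libraries, against 83.8 and 83.3 FPKM in RiboMinus. It fell by 2.49 (SE 0.35, limma adjusted p = 0.0334), and its values rest on 12.1, 1.0 and 1.1 fragments. MRPS2, whose bacterial homologue joins the small subunit late in its assembly, was listed at 10.3, 19.6 and 9.51 FPKM, against 68.0 and 68.3 FPKM. It fell by 2.36 (SE 0.37, limma adjusted p = 0.03998), and its values rest on 10.9, 3.6 and 1.0 fragments. In WT NAD-Capture MRPS2 was listed at 24.7, 43.5 and 4.15 FPKM, all below RiboMinus, and was not called there. MRPS7 was listed at 20.7, 23.3 and 10.3 FPKM, against 89.5 and 85.5 FPKM, a fall of 2.29 (SE 0.39, limma adjusted p = 0.0478). Its values rest on 20.2, 3.9 and 1.0 fragments. No member was called without RiboMinus replicate 1, without RiboMinus replicate 2 or without replicate 2 labelled DXO-KO, while 7 were called without replicate 1 and 12 without replicate 3 labelled DXO-KO, where 1207 of 14496 and 1438 of 14518 genes were called.

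The other nuclear genes of mitochondrial translation were taken from a list of 64: ribosomal proteins under other symbols, translation factors, assembly and rRNA maturation factors, aminoacyl-tRNA synthetases, and transcription and RNA stability factors. In WT NAD-Capture against WT RiboMinus their median was -0.79, and 12 were called lower and 4 higher. The 16 calls make up 25% of the list, close to the 24.5% called over all genes in both directions, while 7.94% of all genes were called lower and 16.5% higher. TFB2M, a mitochondrial transcription factor, was listed at 16.9 and 15.6 FPKM in RiboMinus and at 0 in all 3 WT NAD-Capture libraries (limma adjusted p = 0.00352). DHX30, a helicase of ribosome assembly, went from 84.5 and 86.3 FPKM to 12.1, 17.3 and 13.6 FPKM, a fall of 2.51, and ERAL1, a GTPase that binds the small-subunit rRNA, fell by 2.63. TACO1, a translational activator, fell by 2.37 and SARS2, the mitochondrial seryl-tRNA synthetase, by 1.76. POLRMT, the mitochondrial RNA polymerase, was listed at 6.49 and 7.83 FPKM in RiboMinus and at 18.9, 18.6 and 22.6 FPKM in WT NAD-Capture, a rise of 1.37. MTG2, a GTPase of large-subunit assembly, rose by 1.19 and MTRFR, of the release factor family, by 1.04. Of 5 ribosomal proteins under other symbols GADD45GIP1 rose by 0.96, from 77.5 and 82.1 FPKM to 199.4, 160.5 and 119.7 FPKM. DAP3, PTCD3, AURKAIP1 and CHCHD1 were not called, with log2 differences of -1.46, -0.61, -0.01 and -0.71. In the DXO-KO-labelled libraries against WT NAD-Capture none of the 63 tested was called, with 8 at an unadjusted p under 0.05 in limma, against 16.6% of all genes, and a median of 0.23. Against RiboMinus, the DXO-KO-labelled libraries had DHX30 called lower, by 1.77, and no other gene of the list, against 3.12% of all genes called.

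Cytoplasmic ribosomal protein mRNAs lay on the other side of 0. Of 85 tested in WT NAD-Capture against WT RiboMinus, 41 were called higher and 4 lower, with a median of 1.00, against 1 higher and 10 lower of the 77 mitochondrial ones and a median of -0.68. Under quantile normalization 57 of the 85 were called, 26 of them lower, and their median was 0.35. In that setting 2374 of 16859 genes were called, 931 of them lower. Of 78 nuclear-encoded subunits of oxidative phosphorylation 14 were called higher and 11 lower, with a median of -0.25. Of all genes tested, 16.5% were called higher and 7.94% lower. In either direction 52.94% of the cytoplasmic, 14.29% of the mitochondrial and 32.05% of the oxidative phosphorylation genes were called, against 24.5% of all genes. Between the 2 NAD-Capture groups the medians of the cytoplasmic and oxidative phosphorylation sets were 0.28 and 0.28 (-0.19 and -0.01 under quantile normalization). No gene of either was called, against 0.0341% of all genes. At an unadjusted p under 0.05 in limma there were 4 of 85 and 5 of 79, against 16.6% of all genes. The sets were compared by counts and medians, and the difference between them was not tested.

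**Figure D5:**
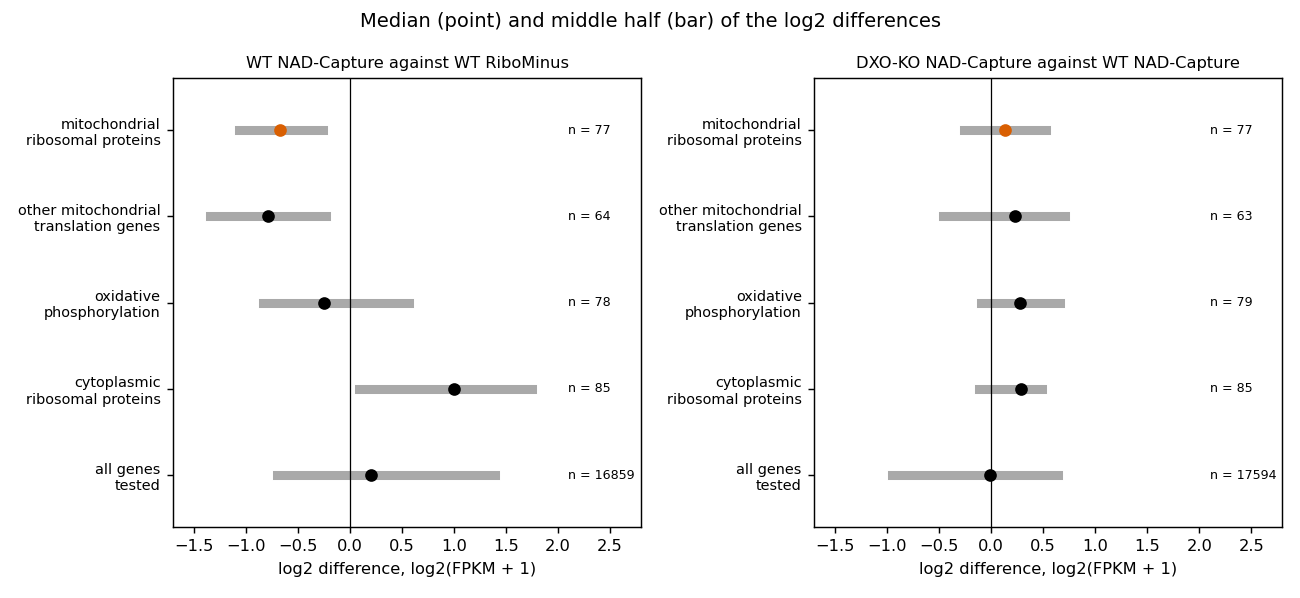
Median (point) and lower to upper quartile (bar) of the log2 differences, on the log2(FPKM + 1) scale, of the mitochondrial ribosomal protein genes, 3 compared sets and all genes tested, for WT NAD-Capture against WT RiboMinus (left) and for the DXO-KO-labelled libraries against WT NAD-Capture (right). On the left the mitochondrial ribosomal proteins sit at -0.68 and the cytoplasmic ones at 1.00, and on the right all medians lie between -0.01 and 0.28, of which the mitochondrial and cytoplasmic ones turn to -0.14 and -0.19 under quantile normalization.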

How the data were processed

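RNA of 8 HEK293T libraries in 3 groups (RiboMinus WT, NAD-Capture WT, NAD-Capture DXO-KO) was analysed. The authors deposited FPKM per RefSeq transcript and library. TopHat2 2.1.1, Bowtie2 2.2.8.0, Cuffdiff and build hg19 are named in the submitters' processing notes, without further settings. Of 53216 rows 52028 (97.8%) were paired with a symbol through a RefSeq gene table of GRCh38.p14, and FPKM was summed per symbol. Coordinates and sequences come from RefSeq promoter windows of that assembly, not from the build of the files.

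The tests used limma 3.58.1 (R 4.3.3; a linear fit per gene and eBayes with trend) on log2(FPKM + 1), two-sided, for genes with a mean FPKM of at least 1 over the libraries compared. Benjamini-Hochberg adjustment ran over all genes tested, at a threshold of 0.05. Only the groups compared entered a fit. The scripts were tested on simulated data. Depth was estimated from low values: over 7076 transcripts of 1500 to 6000 nt, FPKM times length minus 200 nt clustered at multiples of 1 fragment, within 4% for 71.5% to 73.9% of low values, against 17.97% for an even spread. The fragment numbers are estimates and cover counting error only. They assume that each library was scaled by its own mapped fragments, and transcripts without a known length were left out of them.

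The text names the 10 highest and 5 lowest members in RiboMinus, up to 10 called members with the largest difference per direction and comparison, the S18 paralogues, MRPL12, DXO and, of the other mitochondrial translation genes, 5 called per direction and the ribosomal proteins under other symbols. A longer promoter motif, the NRF1 site, was also searched and is not reported here. Members and lists were chosen with earlier results of these data known. Alternatives were other pseudocounts (0.1), filters, scalings, single transcripts, all 8 libraries in the fit, the replicate number as a block and leaving out each replicate.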

Additional observations from a re-analysis of the deposited data

How the results depend on the processing

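For WT NAD-Capture against WT RiboMinus, the 11 members called became 20 among genes above 0 in every library, 34 after centring on the median gene, 34 after rescaling to the protein-coding rows, 17 with at least 1 called transcript when single transcripts were fitted, 4 with all 8 libraries in the fit, 1 under quantile normalization and 0 with the replicate number as a block, and 0 to 20 when 1 replicate was left out. The 4126 calls over all genes (24.5%) became 4232 (37.6% of fewer genes), 5172, 5299, 6363 (transcripts), 2602, 2374 and 0 in that order of settings, and 18 to 5268 when 1 replicate was left out. The members' median of -0.68 became -1.13 with centring, -1.11 with rescaling, -0.38 under quantile normalization and -0.76 with single transcripts, while the median of all genes went from 0.20 to -0.25, -0.17, -0.20 and 0.24. The share of all calls that were higher was 67.5% and became 42.6% with centring, 47.3% with rescaling and 49.0% with single transcripts. For the libraries labelled DXO-KO against WT NAD-Capture, 0 members were called in every alternative run, with 3 to 12 at an unadjusted p under 0.05, and the median of 0.13 turned to -0.14 under quantile normalization and ran from 0.01 to 0.28 when 1 replicate was left out. The 6 calls over all genes became 57 among genes above 0 in every library, 28 under quantile normalization and 439 with all 8 libraries in the fit. For the libraries labelled DXO-KO against RiboMinus, the 3 members called became 0 without a filter, 8 at a mean FPKM of at least 10, 10 above 0 in every library, 10 with centring, 8 under quantile normalization, 15 with single transcripts, 0 with the replicate block and 0 to 12 when 1 replicate was left out. Their median of -0.51 became -0.74 with centring, -0.98 with rescaling and -0.76 with single transcripts, and ran from -0.69 to -0.31 when 1 replicate was left out. The 466 calls over all genes became 66, 582, 1502, 643, 799 and 3148 (transcripts) in the order of the first 6 of those settings. The cause was not tested.

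No pairing by replicate number was seen: deviations of same-numbered libraries correlated between -0.0449 and 0.0231 over all genes. This check is weak, since the NAD-Capture values carry much counting error and the deviations of 2 RiboMinus libraries mirror each other. Whether the numbers mark a shared batch is therefore not known. The replicate block left 0 calls over all genes in both comparisons with RiboMinus and 4 between the NAD-Capture groups. RiboMinus has no replicate 3, so in its comparisons the block leaves almost nothing from which to estimate the spread. No conclusion is drawn from the loss of calls there. Over the named genes' alternatives none turned direction, 211 kept their side of the threshold and 146 lost it. Depth limits every NAD-Capture value: most members rest on fewer than 10 fragments in 5 of the 6 libraries.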

Other observations

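A few values belong in no comparison above; these genes were picked after their values were seen. MRPS12, a small-subunit protein of the decoding site, was listed at 45.0 and 52.9 FPKM in RiboMinus and at 0, 37.4 and 0 FPKM in WT NAD-Capture, where 3 fragments would have given 15.56 and 11.95 FPKM in replicates 1 and 3. It was above 0 in all libraries labelled DXO-KO, at 10.7, 17.9 and 14.8 FPKM, but on only 6.3, 1.8 and 1.2 estimated fragments. KGD4, formerly MRPS36, was listed at 16.4 and 13.1 FPKM in RiboMinus, at 0, 5.23 and 3.48 FPKM in WT NAD-Capture and at 1.07, 0 and 22.1 FPKM in the libraries labelled DXO-KO. The snoRNA SNORA58, which lies inside MRPL3, was listed at 5.27 and 2.82 FPKM in RiboMinus, at 172.5, 65.4 and 43.3 FPKM in WT NAD-Capture and at 112.9, 451.5 and 274.4 FPKM in the libraries labelled DXO-KO. MRPL3 itself, a protein of the large subunit, had a log2 difference of -0.74 in WT NAD-Capture against WT RiboMinus, opposite in sign to the 4.03 of the snoRNA.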
